A study of Mus musculus with 4 samples.

Results

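Interferon-stimulated genes are the genes a cell switches on after it has received an interferon. The set described here holds 38 of the 23420 genes counted in RNA from mouse prefrontal cortex (PFC), chosen by name for their known place in the interferon response, and it splits into 33 type I-type genes and 5 gamma-type genes (*Gbp2*, *Gbp3*, *Gbp7*, *Igtp*, *Irgm1*). All 38 were found in the count tables and all 38 passed the filter on low counts, with raw counts between 28 and 2823. The study asked how loss of *Ash1L*, a histone methyltransferase, changes gene expression in the PFC. There were 2 samples from C57BL6/J mice that received *Ash1L* shRNA AAV9 and 2 control samples from C57BL6/J mice that received GFP AAV9. The methods describe the control virus as a scrambled shRNA AAV, injection at 5 weeks of age and tissue of 3 mice pooled for each sample, whereas the series description gives mice of 6 to 8 weeks, 3 in the knockdown group and 2 in the control group. The shRNA was driven by the U6 promoter, which works in most cell types, and PFC punches with GFP fluorescence were taken, so infected and uninfected cells of every kind were lysed together. If the control virus carried GFP alone, as the labels have it, the presence of an shRNA and the loss of *Ash1L* cannot be told apart.

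Type I interferons (the alpha and beta forms) bind the receptor pair IFNAR1 and IFNAR2, and the signal brings STAT2 and IRF9 into a complex that binds a DNA element called the interferon-stimulated response element (ISRE). Interferon gamma, made mostly by T and NK cells, binds IFNGR1 and IFNGR2 and acts at another element, the gamma-activated site (GAS). In brain, neurons, astrocytes, microglia and endothelial cells can all respond to type I interferon, while the guanylate-binding proteins (Gbp) and the immunity-related GTPases (Igtp, Irgm1) are known as strong targets of interferon gamma, although many of them answer both signals.

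Both DNA elements can be looked for in the promoters of the set. A promoter here is the stretch from 250 bases before to 50 bases after a RefSeq start site on GRCm38.p6, 29 of the 38 genes had such an entry, and the first base of the transcript is position 0. The sites below were chosen because they belong to the 5 UP genes with a match, to *Isg15* as a classical ISRE gene and to the 5 gamma-type genes. Each runs 5′ to 3′ along the gene, with the ISRE core (GAAA, any 2 bases, GAAA, on either strand) in capitals.
*Rsad2*, chr12:26456553-26456582, minus strand, capitals from -120 to -111: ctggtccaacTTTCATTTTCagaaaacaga
*Ifit1*, chr19:34640775-34640823, plus strand, capitals from -104 to -76: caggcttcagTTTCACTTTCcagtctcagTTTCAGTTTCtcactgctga
*Ifih1*, chr2:62646206-62646233, minus strand, capitals from 32 to 41: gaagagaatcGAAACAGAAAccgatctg
*Ddx58*, chr4:40239804-40239833, minus strand, capitals from 2 to 11: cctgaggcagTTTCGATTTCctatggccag
*Ifitm3*, chr7:141010723-141010752, minus strand, capitals from 2 to 11: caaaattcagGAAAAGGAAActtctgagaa
*Ifitm3*, chr7:141010706-141010735, minus strand, capitals from 19 to 28: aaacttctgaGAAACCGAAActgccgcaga
*Isg15*, chr4:156200865-156200906, minus strand, capitals from -78 to -57: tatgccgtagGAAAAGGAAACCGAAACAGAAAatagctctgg
*Gbp2*, chr3:142620594-142620623, plus strand, capitals from -59 to -50: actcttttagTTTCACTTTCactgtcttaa
*Gbp3*, chr3:142559989-142560024, plus strand, capitals from -45 to -30: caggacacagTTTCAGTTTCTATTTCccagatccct
*Gbp7*, chr3:142530273-142530302, plus strand, capitals from -53 to -44: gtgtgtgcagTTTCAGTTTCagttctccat
*Igtp*, chr11:58199512-58199541, plus strand, capitals from -34 to -25: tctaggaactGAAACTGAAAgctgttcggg
*Irgm1*, chr11:48871425-48871460, minus strand, capitals from -30 to -15: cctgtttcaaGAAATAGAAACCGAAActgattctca

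The ISRE core was present in 18 of 33 promoter entries of the set (54.5%), against 3.44% of all 32851 mouse promoters of the same length. It was found in 12 of 24 type I-type genes with a promoter entry and in 5 of 5 gamma-type genes. Among the genes called UP below, 5 of 7 with an entry held it, and among the others 12 of 22 did. The GAS core TTCNNNGAA, which reads the same on both strands, was present in 8 of 33 promoter entries (24.2%), against 8.30% of all promoters. *Gbp7* and *Igtp* were the gamma-type genes with a GAS core in the window, and in *Bst2* and *Ifitm3* the GAS core overlapped an ISRE core. A match is a run of letters and not a measured binding site, and genes without a match may hold the element outside the window.

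**Figure D1:**
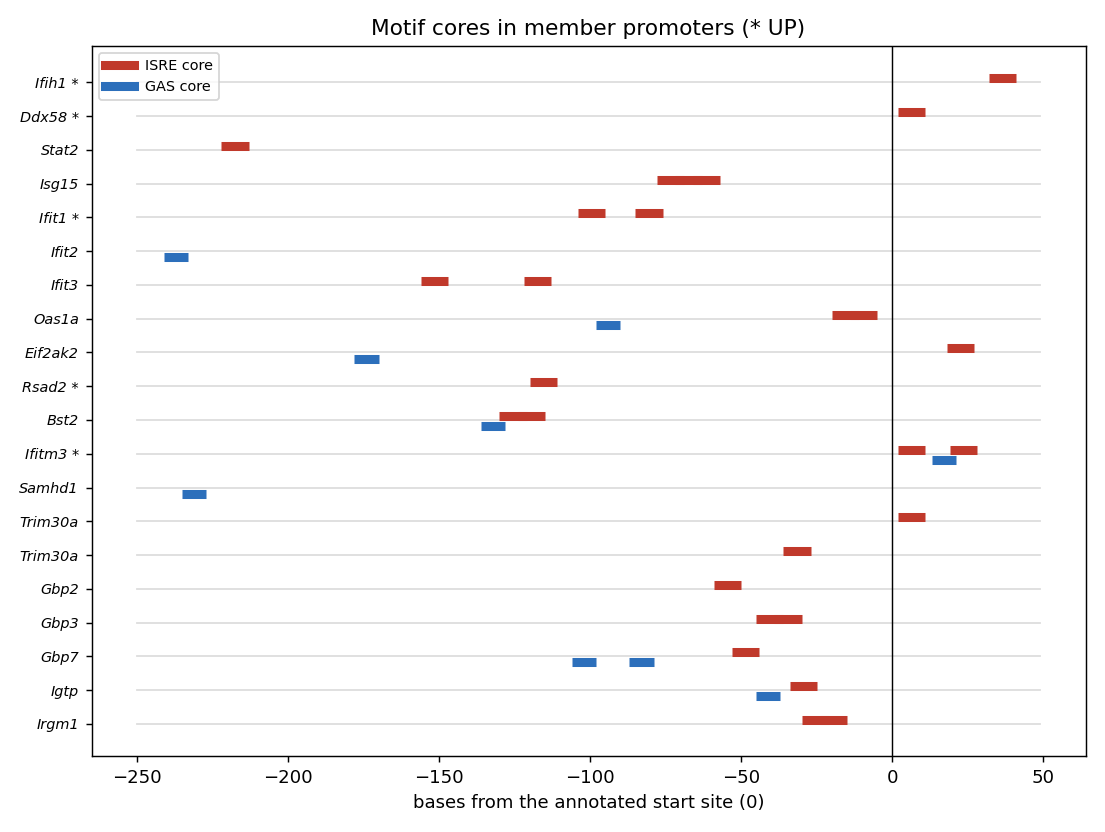
Positions of ISRE cores (red) and GAS cores (blue) in the promoters of the set that hold at least 1 of them, in bases from the RefSeq start site (position 0, vertical line), 1 grey line per promoter entry (*Trim30a* has 2 entries with a match) and UP genes marked with an asterisk. All 5 gamma-type genes, at the bottom, hold an ISRE core before the start site, and the cores of *Ifih1*, *Ddx58* and *Ifitm3* lie after it.

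For the sequence around the sites, the 250 bases before the start of *Rsad2*, the type I-type gene with the largest change (GRCm38.p6, chr12:26456453-26456702, minus strand), and of *Igtp*, a gamma-type gene (GRCm38.p6, chr11:58199306-58199555, plus strand), are given with ISRE and GAS cores in capitals. *Igtp* holds a GAS core and an ISRE core 2 bases apart, whereas *Rsad2* holds an ISRE core alone.
*Rsad2*: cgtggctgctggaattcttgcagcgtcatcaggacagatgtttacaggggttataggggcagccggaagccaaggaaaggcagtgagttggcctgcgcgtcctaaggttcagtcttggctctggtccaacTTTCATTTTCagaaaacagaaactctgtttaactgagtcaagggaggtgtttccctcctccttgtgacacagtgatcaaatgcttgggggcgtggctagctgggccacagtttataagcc
*Igtp*: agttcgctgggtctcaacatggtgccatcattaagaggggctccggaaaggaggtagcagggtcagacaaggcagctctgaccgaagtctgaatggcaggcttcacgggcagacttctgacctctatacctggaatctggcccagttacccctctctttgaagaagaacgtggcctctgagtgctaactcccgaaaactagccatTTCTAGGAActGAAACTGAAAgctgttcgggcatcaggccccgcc

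Total counts ran from 14251190 in control 1 to 35764874 in control 2. Values below are TMM-normalized counts, raw counts divided by a library size that TMM (a scaling for composition) had adjusted and multiplied by the mean of those sizes, 24327552. *Ash1l*, the targeted gene, was at 5961 and 7057 in controls 1 and 2 and at 5246 and 3345 in *Ash1L* shRNA samples 1 and 2, with a log2 fold change of -0.60 (SE 0.22, adjusted p = 0.275). It was DOWN (lower by the rule for UP given below), the call held only without *Ash1L* shRNA 1 when samples were left out in turn, and *Ash1L* shRNA 2 had the lower level of the pair. Markers of excitatory neurons, oligodendrocytes and astrocytes were abundant in every sample, as the tissue label has it. Of these, 4 of 8, 2 of 10 and 6 of 10 were DOWN and 0 UP. Of all genes tested, 8.28% were DOWN and 8.61% UP. Markers of interneurons had 3 of 8 DOWN, those of myeloid cells from blood 4 of 10, and those of endothelial cells and microglia 0 of 10 and 0 of 12. Markers of B and plasma cells summed to 3883 and 3784 in the controls and 622.7 and 37.56 in the shRNA samples, and 5 of the 6 tested were DOWN. Most of the control sums came through *Jchain* (3466 and 3262 in the controls, 569.4 and 17.61 in the shRNA samples), the tested marker that was not called. For T and NK cells the sums were 339.5 and 697.0 in the controls against 213.2 and 158.5, with 6 of 11 DOWN (*Cd3d*, *Cd3e*, *Cd3g*, *Cd8b1*, *Cd4* and *Nkg7*). *Cd8a* and *Lck* had log2 fold changes of -1.49 and -1.56 and were not called. The NK cell gene *Klrb1c* and the granzymes *Gzmb* and *Gzma* had 0.64, 0.13 and -0.08, so they did not share the fall. *Ncr1* and *Klrb1c*, defining NK cell genes, were at 0 in control 1, and *Ncr1* was not tested. Microglia markers summed to 22310, 22790, 30170 and 11810 in controls 1 and 2 and shRNA samples 1 and 2, so the shRNA samples lay on either side of the controls.

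Across the whole set, more genes were higher than lower after *Ash1L* knockdown. By the limits of the study (unadjusted p under 0.05 and at least a 1.2-fold change), applied here to the quasi-likelihood test of edgeR, 10 of the 38 were UP, against 8.61% of the 16232 genes tested, and 0 were DOWN, against 8.28%. With DESeq2, the tool of the study, 12 were UP, against 6.16% of all genes. The UP genes were *Rsad2*, *Ifih1*, *Ddx58*, *Usp18*, *Ifitm3*, *Mx2*, *Ifit1*, *Rtp4*, *Xaf1* and *Irf9*, all of them type I-type. A log2 fold change above 0 was seen in 35 of 38, against 49.7% of all genes, and the median was 0.40, against -0.003 over all genes. Both *Ash1L* shRNA samples lay above both controls in 17 of 38, where 26.5% of all genes did, and below both controls in 0, where 26.8% did. After adjustment for all genes tested, the quasi-likelihood test left 0 of the 38 with an adjusted p under 0.05 (range 0.234 to 0.936), where 0.00616% of all genes passed that limit and 16.9% had an unadjusted p under 0.05, as the 10 UP genes did. Of the 38, *Rsad2*, *Ifih1* and *Ddx58* passed by DESeq2 (2.53% of all genes with an adjusted p) and by the likelihood ratio test of edgeR (2.95%). Blocked by replicate number, 9 of 38 were UP (6.48% of all genes) and 0 DOWN (6.28%). The count moved with single samples, as did that of all genes. There were 3 UP without control 1 (*Rsad2*, *Ifih1* and *Ddx58*; 5.07% of all genes), 7 without control 2 (2.57%), 7 without *Ash1L* shRNA 1 (14.4%) and 25 without *Ash1L* shRNA 2 (6.25%). *Usp18*, *Ifit1* and *Mx2* kept the call only without *Ash1L* shRNA 2, *Irf9*, *Xaf1* and *Rtp4* lost it without either control, and *Ifitm3* lost it without control 1. Without control 1, *Samhd1*, *Gbp2* and *Igtp* were DOWN, where 4.14% of all genes were. In bulk tissue, a change in the number of responding cells and a change in RNA per cell cannot be told apart, and with 2 samples in each group the p-values rest on the spread between these pools.

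**Figure D2:**
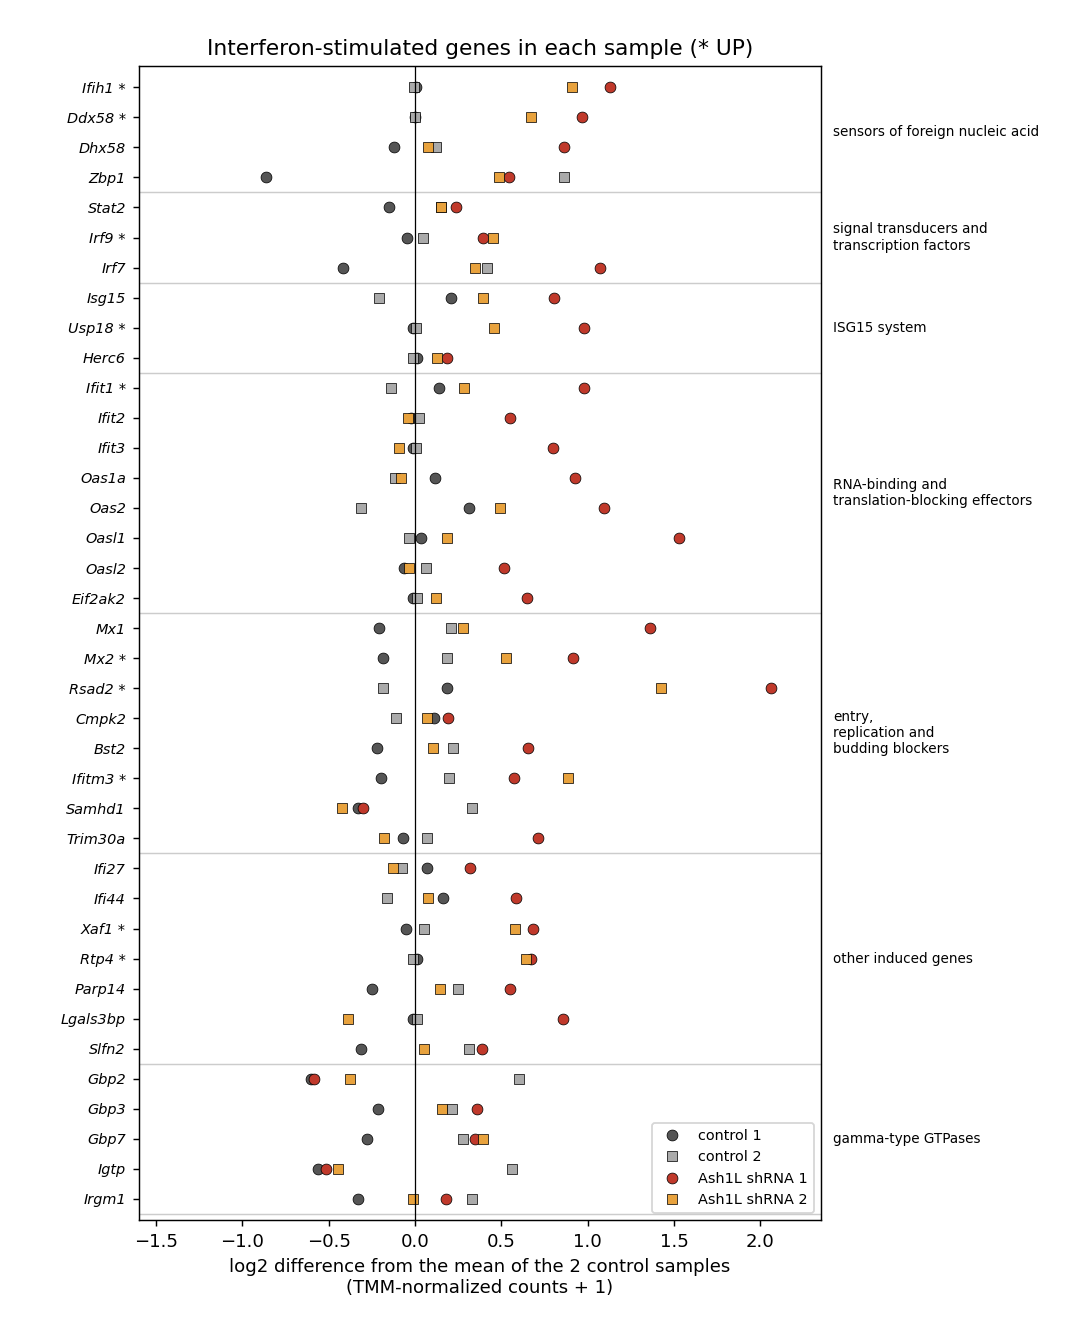
Each of the 38 genes in each sample, as the log2 difference of the TMM-normalized count (plus 1) from the mean of the controls. Points are single samples, asterisks mark UP genes and grey lines part the role groups. The *Ash1L* shRNA 1 points (red) lie to the right of both controls in 33 of 38 genes (36.6% of all genes). The *Ash1L* shRNA 2 points (orange) do so in 17 of 38 (41.7% of all genes).

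Among the sensors of foreign nucleic acid, both cytosolic RNA sensors that start interferon production rose. *Ifih1* (MDA5, which binds long viral RNA; chr2:62595798-62646255, mm10) was at 505.0 and 500.7 in controls 1 and 2 and at 1101 and 943.7 in *Ash1L* shRNA samples 1 and 2. The controls were nearly equal and both shRNA samples were far above them, a 2.03-fold change (log2 1.02, SE 0.14, adjusted p = 0.234). *Ddx58* (RIG-I, which binds short viral RNA with free phosphate ends; chr4:40203773-40239828) was at 411.9 in each control and at 805.6 and 657.3 in the shRNA samples. Its groups did not overlap either, and the log2 fold change was 0.83 (SE 0.15, adjusted p = 0.240). *Dhx58* (LGP2, which tunes both sensors) and *Zbp1* (a sensor of nucleic acid in the Z form) had log2 fold changes of 0.52 and 0.22 and did not pass the test. For these genes at least 1 shRNA sample fell between the controls.

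Among the signal transducers, the component that recognises the ISRE rose and its STAT partner did not pass the test. *Irf9* was at 518.7 and 554.8 in the controls and at 705.3 and 733.6 in the shRNA samples, and the pair in each group lay close together. Its log2 fold change was 0.42 (SE 0.13, adjusted p = 0.260), and since its exons overlap those of *Rnf31* on the same strand, some of its counts may be shared. *Stat2* was at 763.5 and 941.8 in the controls and at 1001 and 941.4 in the shRNA samples, with a log2 fold change of 0.18 (SE 0.15, adjusted p = 0.542). The lower shRNA value fell just under the higher control, so the groups overlapped. *Irf7*, which amplifies transcription of type I interferon genes, had a log2 fold change of 0.68 (SE 0.34, adjusted p = 0.359) with overlapping groups, and its exons overlap *Phrf1* on the opposite strand.

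All 3 genes of the ISG15 system lay above both controls in both shRNA samples, where 26.5% of all genes did. Of the 3, 1 was UP (8.61% of all genes). *Usp18*, which removes ISG15 from proteins and damps signalling at the type I receptor, was at 196.5 and 199.0 in the controls and at 389.9 and 272.3 in the shRNA samples. The controls were again nearly equal, while *Ash1L* shRNA 1 stood well above *Ash1L* shRNA 2 (log2 fold change 0.75, SE 0.23, adjusted p = 0.260). *Isg15*, the ubiquitin-like modifier itself, was at 122.4 and 91.5 in the controls and at 185.6 and 139.7 in the shRNA samples, with a log2 fold change of 0.62 (SE 0.28, adjusted p = 0.324). *Herc6*, the ligase that attaches ISG15 in mice, was at 1275 and 1252 in the controls and at 1439 and 1383 in the shRNA samples, a log2 fold change of 0.16 (SE 0.11). The groups of both genes were apart, but neither passed the test.

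The 8 RNA-binding and translation-blocking effectors had the widest gap between the knockdown samples among the role groups. Each of the 8 was above both controls in *Ash1L* shRNA 1 (36.6% of all genes). The median log2 difference from the control mean was 0.86 there and 0.04 in *Ash1L* shRNA 2. In *Ash1L* shRNA 2, 4 of the 8 were above both controls (41.7% of all genes). *Ifit1*, which holds back viral RNA that lacks the host's cap marks, was the UP gene of this group, at 436.0 and 359.2 in the controls and at 780.8 and 482.4 in the shRNA samples (log2 fold change 0.68, SE 0.25, adjusted p = 0.272). Its partner *Ifit3* was at 885.8 and 897.4 in the controls and at 1552 and 834.5 in the shRNA samples. *Ifit2* was at 751.4 and 774.0 in the controls and at 1119 and 740.6 in the shRNA samples. In *Ifit2* and *Ifit3*, *Ash1L* shRNA 1 was far above both controls and *Ash1L* shRNA 2 below them, and the log2 fold changes of 0.29 (SE 0.21) and 0.42 (SE 0.28) did not pass the test. The *Ifit* genes lie side by side on chromosome 19 and resemble each other, so reads may have been split between them.

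The oligoadenylate synthetases, which make the messenger that switches on RNase L, and the kinase *Eif2ak2* (PKR) followed the same order. *Oas2* was at 72.4 and 46.5 in the controls and at 125.2 and 82.2 in the shRNA samples (log2 fold change 0.84, SE 0.38, adjusted p = 0.320). *Oasl1*, a relative of these enzymes, was at 51.7 and 49.2 in the controls and at 147.4 and 57.5 in the shRNA samples (log2 fold change 1.03, SE 0.48, adjusted p = 0.332). *Eif2ak2*, which stops translation once bound to viral RNA, was at 486.0 and 495.9 in the controls and at 771.0 and 535.2 in the shRNA samples (log2 fold change 0.41, SE 0.20, adjusted p = 0.336). Both shRNA samples exceeded both controls in these 3 genes (26.5% of all genes), which are given by sample for that reason, and none passed the test. *Ash1L* shRNA 1 stood well above *Ash1L* shRNA 2 in each, and the controls of *Oas2* were as far apart as its shRNA samples on the log scale. *Oas1a* and *Oasl2* had log2 fold changes of 0.52 and 0.26, with *Ash1L* shRNA 2 inside the control range.

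Among the proteins that block virus entry, replication or budding, 3 of 8 were UP (8.61% of all genes), with the largest change of the set. *Rsad2* (viperin, an enzyme that makes a chain-ending nucleotide; chr12:26442746-26456452) was at 229.2 and 177.5 in controls 1 and 2 and at 845.6 and 543.4 in *Ash1L* shRNA samples 1 and 2, from raw counts of 133, 256, 952 and 463. The lower shRNA sample was well above the higher control, and the change was 3.45-fold (log2 1.79, SE 0.26, adjusted p = 0.234). *Cmpk2*, a nucleotide kinase gene whose start site lies 12752 bases away on the opposite strand, was at 1120 and 962.6 in the controls and at 1188 and 1089 in the shRNA samples (log2 fold change 0.13, SE 0.13, adjusted p = 0.637). The groups of *Cmpk2* overlapped, and its fold change was among the 3 smallest of the set.

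*Ifitm3*, which stops fusion of enveloped viruses in endosomes, was the gene of this group in which *Ash1L* shRNA 2 was the higher. It was at 548.0 and 719.9 in the controls and at 934.4 and 1163 in the shRNA samples, and its groups did not overlap (log2 fold change 0.72, SE 0.19, adjusted p = 0.253). *Mx2*, a dynamin-like GTPase, was at 86.2 and 111.7 in the controls and at 185.6 and 142.0 in the shRNA samples. It passed the test (log2 fold change 0.72, SE 0.28, adjusted p = 0.281). With the replicate number as a block it was no longer UP (unadjusted p = 0.0754 by the quasi-likelihood test with that block). *Mx1*, its paralog, was at 79.3 and 106.1 in the controls and at 237.2 and 111.5 in the shRNA samples (log2 fold change 0.90, SE 0.40, adjusted p = 0.320). *Ash1L* shRNA 2 was only just above control 2 for *Mx1*, which was UP in 5 of the 9 other settings with all samples, DESeq2 and the likelihood ratio test among them. *Bst2* (tetherin) and *Trim30a* had log2 fold changes of 0.38 and 0.33 and overlapping groups. *Samhd1*, which empties the pool of DNA building blocks and was singled out after its values were seen, was the type I-type gene with a fold change below 0. It was at 353.3 and 556.9 in the controls and at 360.6 and 331.0 in the shRNA samples, where control 2 stood apart from the other 3 samples (log2 fold change -0.41, SE 0.24, adjusted p = 0.408).

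Of the 7 other induced genes 2 were UP (8.61% of all genes), and in both the replicates lay close together. *Rtp4*, a chaperone of receptors, was at 193.0 and 190.0 in the controls and at 305.6 and 299.3 in the shRNA samples (log2 fold change 0.66, SE 0.18, adjusted p = 0.255). *Xaf1*, which favours cell death, was at 208.5 and 224.0 in the controls and at 348.2 and 324.0 in the shRNA samples (log2 fold change 0.63, SE 0.17, adjusted p = 0.256). Both shRNA samples had nearly the same level of each gene, unlike the effectors above. *Lgals3bp*, a secreted partner of galectins, was at 1372 and 1391 in the controls and at 2507 and 1054 in the shRNA samples. *Ash1L* shRNA 1 was far above and *Ash1L* shRNA 2 far below controls that differed little, and the log2 fold change of 0.37 had an SE of 0.40. *Ifi27*, listed in the tables as *Ifi27l1*, was at 939.3 and 849.5 in the controls and at 1113 and 816.9 in the shRNA samples (log2 fold change 0.11, SE 0.18), with the shRNA samples on either side of the controls. *Ifi44*, *Parp14* (an ADP-ribosyltransferase) and *Slfn2* (a schlafen protein) had log2 fold changes between 0.18 and 0.36 and did not pass the test.

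**Figure D3:**
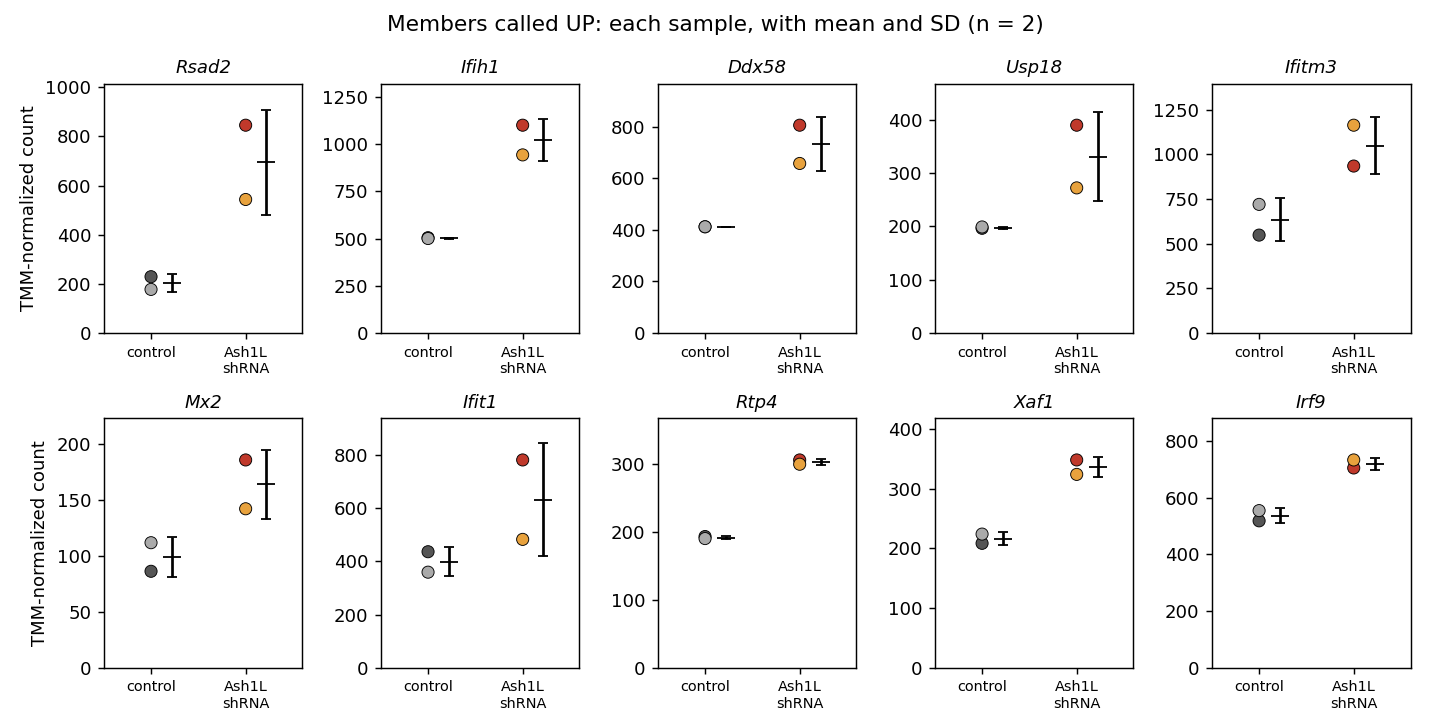
TMM-normalized counts of the 10 UP genes in each sample (grey, controls; red, *Ash1L* shRNA 1; orange, *Ash1L* shRNA 2), with the mean and SD of each group of 2 beside the points and the axis starting at 0. Both shRNA samples lie above both controls in all 10 (26.5% of all genes). The genes were called UP from these same values, so this separation is not added evidence. *Ash1L* shRNA 2 is the higher of the pair in *Ifitm3* and *Irf9*.

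The 5 gamma-type GTPases, which act against microbes held in vacuoles, had no gene past the test in either direction (8.61% of all genes were UP and 8.28% DOWN). All 5 are given here, *Gbp2*, *Gbp3* and *Igtp* among them after their values were seen. *Gbp2* (chr3:142620602-142638008) was at 646.3 and 1490 in controls 1 and 2 and at 652.9 and 755.9 in the shRNA samples. *Igtp* (chr11:58199556-58207591) was at 618.7 and 1350 in the controls and at 640.4 and 671.4 in the shRNA samples. In both genes 3 samples were close together and control 2 was far above them, and the log2 fold changes of -0.61 (SE 0.39) and -0.60 (SE 0.35) did not pass the test. *Irgm1* was at 1032 and 1630 in the controls and at 1471 and 1286 in the shRNA samples, inside the control range (log2 fold change 0.04, SE 0.22, adjusted p = 0.936). *Gbp3* was at 625.6 and 839.1 in the controls and at 928.2 and 806.4 in the shRNA samples (log2 fold change 0.24, SE 0.18). *Gbp7* was at 689.4 and 1011 in the controls and at 1064 and 1097 in the shRNA samples, the gamma-type gene whose groups did not overlap (log2 fold change 0.34, SE 0.19, adjusted p = 0.401). The exons of *Igtp* overlap those of *Irgm2*, and the *Gbp* genes resemble each other closely, so counts may be shared within both families.

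The classes are set side by side here, and the difference between them was not tested. Of the 33 type I-type genes, 10 were UP and 0 DOWN (8.61% and 8.28% of all genes). In 32 the log2 fold change was above 0 (49.7% of all genes), and the median was 0.42 (0.13 without *Ash1L* shRNA 1). Of the 5 gamma-type genes, 0 were UP and 0 DOWN, which with so few genes cannot be set apart from those shares. In 3 the log2 fold change was above 0, and the median was 0.04 (0.41 without control 2 and -0.23 without control 1). The summed normalized count of the type I-type genes was 14140 and 15210 in controls 1 and 2 and 22790 and 16760 in *Ash1L* shRNA samples 1 and 2. The controls were close and *Ash1L* shRNA 1 stood out. For the gamma-type genes the sums were 3612 and 6321 in the controls and 4756 and 4618 in the shRNA samples, so that the shRNA samples were close and the controls far apart. Control 2 was above control 1 in 5 of 5 gamma-type genes, in 21 of 33 type I-type genes and in 50.3% of all genes. The sum of T and NK cell markers was also higher in control 2 than in control 1 (697.0 against 339.5, with all 11 tested markers higher). That of blood myeloid markers was 11000 against 6616, with 8 of 10 tested markers higher in control 2. Most of that gap came through *Cd74*, a gene of the MHC class II pathway that interferon gamma also induces (6316 against 2954). *Lyz2*, another abundant marker of that list, was at 1612 against 1803. The part of these cells in the gamma-type levels was not tested.

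Taken sample by sample, the type I-type genes were highest in *Ash1L* shRNA 1 and the gamma-type genes in control 2. The median log2 difference of the type I-type genes from the control mean was -0.01 and 0.01 in controls 1 and 2, 0.69 in *Ash1L* shRNA 1 and 0.15 in *Ash1L* shRNA 2, where the medians of all genes lay within 0.004 of 0. *Ash1L* shRNA 1 was above both controls in 31 of 33 (36.6% of all genes), and *Ash1L* shRNA 2 in 16 of 33, or 48.5%, close to the 41.7% of all genes, and below both in 6, or 18.2% (41.7% of all genes). *Ash1L* shRNA 1 exceeded *Ash1L* shRNA 2 in 31 of 33, all but *Irf9* and *Ifitm3*, against 52.2% of all genes. *Ash1l* itself was lower in *Ash1L* shRNA 2, and a link between its level and this order was not tested. The gamma-type medians were -0.33, 0.33, 0.18 and -0.01 in the same order of samples. All 12 microglia markers were also higher in *Ash1L* shRNA 1 than in *Ash1L* shRNA 2, with medians of 0.37 and -0.89. The same order held in 6 of 6 B and plasma cell, 9 of 10 blood myeloid and 7 of 8 excitatory neuron markers. It held in 8 of 10 astrocyte, 8 of 10 oligodendrocyte, 7 of 11 T and NK, 6 of 10 endothelial and 5 of 8 interneuron markers. The part of these cells in the gap between the shRNA samples was not tested.

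**Figure D4:**
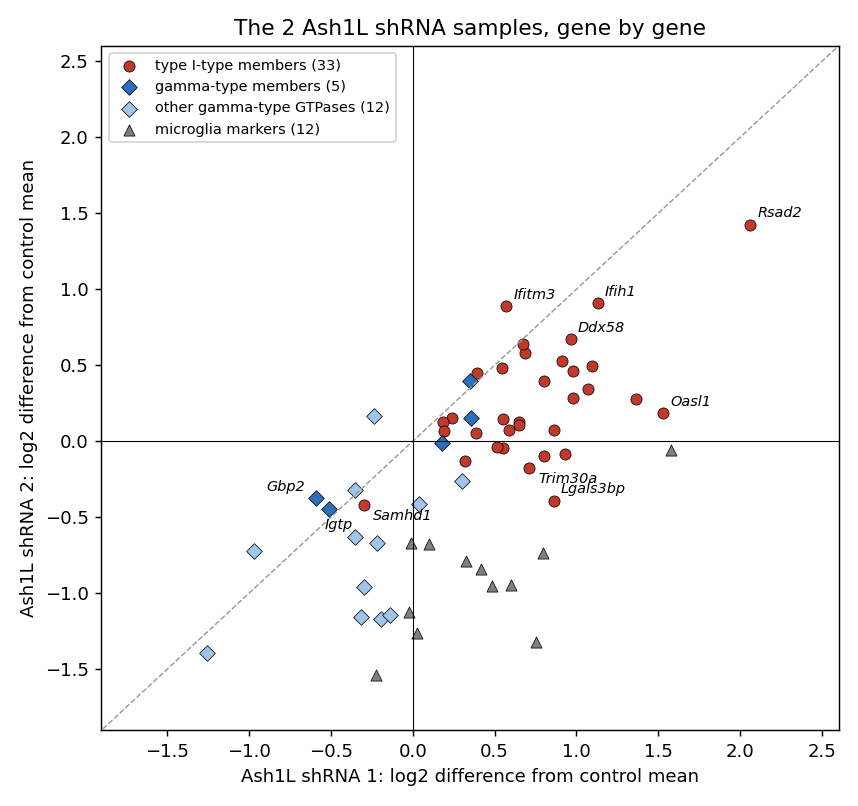
Log2 difference from the control mean in *Ash1L* shRNA 1 (horizontal) and in *Ash1L* shRNA 2 (vertical), 1 point per gene, for type I-type genes (red), gamma-type genes (dark blue), other gamma-type GTPases (light blue) and microglia markers (grey triangles), with the line of equality dashed. Of the type I-type genes, 31 of 33 lie below the dashed line, and *Rsad2* and *Ifih1* are far from 0 on both axes, whereas the microglia markers lie below 0 on the vertical axis.

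With each shRNA sample fitted alone against both controls, the count of calls changed with the sample. Against *Ash1L* shRNA 1 alone, 25 of 38 were UP and 0 DOWN, where 6.25% and 5.05% of all genes were, and all 25 were type I-type. Against *Ash1L* shRNA 2 alone, 7 of 38 were UP (*Rsad2*, *Ifih1*, *Ddx58*, *Ifitm3*, *Rtp4*, *Xaf1* and *Irf9*), where 14.4% of all genes were, and *Lgals3bp* was DOWN, where 16.5% were. Those 7 were UP in both fits. *Rsad2* had a log2 fold change of 2.08 (adjusted p = 0.00942) with *Ash1L* shRNA 1 and of 1.43 (adjusted p = 0.00535) with *Ash1L* shRNA 2. *Ifih1* had 1.13 (adjusted p = 0.0370) and 0.90 (adjusted p = 0.00805). *Ddx58* had 0.97 (adjusted p = 0.0619) and 0.67 (adjusted p = 0.0281). In these fits the lone shRNA sample is assumed to vary as the controls do, and both fits use the same controls, so they are not separate evidence. The share of all genes UP in both fits was not counted. No gamma-type gene was called with either sample. *Rsad2*, *Ifih1* and *Ddx58* were the genes of the set called UP in all 9 other settings with all samples and whichever sample was left out. How many of all genes kept a call throughout was not counted.

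The rest of the pathway, 78 further genes of which 66 passed the filter on low counts, had 5 UP, 2 DOWN and a median log2 fold change of 0.03, shares of calls no higher than those of all genes (8.61% and 8.28%). Of the 11 ligand genes none passed the filter. *Ifnb1* had raw counts of 0 and 0 in the controls and 1 and 1 in the shRNA samples, below the 3 counts taken as the limit of detection. *Ifng* had 3 and 16 raw counts in the controls and 4 and 2 in the shRNA samples, or normalized counts of 5.17 and 11.1 against 3.553 and 2.348, so both shRNA samples lay below both controls on counts this low. Apart from *Ifng* in control 2, the sample with the most reads, no ligand gene had more than 5 counts in any sample, so ligand levels were not measurable at this depth. The receptor genes of type I interferon, *Ifnar1* and *Ifnar2*, had log2 fold changes of -0.24 (SE 0.12) and 0.02 (SE 0.17), which did not pass. *Ifngr1* had -0.31 (SE 0.18), and *Ifngr2*, the other chain of the gamma receptor, was UP from 1465 and 1403 to 1747 and 1820 (log2 fold change 0.31, SE 0.11, adjusted p = 0.262), a call lost with the replicate block, by DESeq2 and by the likelihood ratio test.

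Upstream of interferon, 2 of 12 adaptor and kinase genes were UP and 0 DOWN (8.61% and 8.28% of all genes). *Tlr7*, an endosomal receptor for viral RNA, was at 127.5 and 156.0 in the controls and at 235.4 and 197.2 in the shRNA samples (log2 fold change 0.60, SE 0.23, adjusted p = 0.279), and its call was lost with the replicate block and by DESeq2. *Traf3*, a ubiquitin ligase on the way to interferon, was at 2694 and 2168 in the controls and at 3278 and 5740 in the shRNA samples (log2 fold change 0.89, SE 0.27, adjusted p = 0.260). The groups overlapped in neither gene, and the order of the shRNA samples was opposite in the pair. Of 23 other type I-type genes tested, 2 were UP and 0 DOWN, a share of UP calls near the 8.61% of all genes, with a median log2 fold change of 0.18. In 21 of the 23 *Ash1L* shRNA 1 was higher than *Ash1L* shRNA 2 (52.2% of all genes). By sample, their median log2 difference from the controls was 0.40 in *Ash1L* shRNA 1 and -0.07 in *Ash1L* shRNA 2, where 5 of 23 were above and 12 below both controls. *Slfn5*, a schlafen family gene, was at 523.9 and 484.8 in the controls and at 867.8 and 717.2 in the shRNA samples (log2 fold change 0.66, SE 0.15, adjusted p = 0.253). *Ifi204*, of the DNA-sensing Ifi200 family, was at 151.7 and 174.1 in the controls and at 358.8 and 224.2 in the shRNA samples (log2 fold change 0.84, SE 0.27, adjusted p = 0.260).

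Among 12 other GTPases of the gamma type, 0 were UP and 2 DOWN (8.61% and 8.28% of all genes). In 11 of 12 the log2 fold change was below 0, where 49.7% of all genes had one above 0. *Gbp10* was at 96.5 and 231.6 in the controls and at 62.2 and 56.3 in the shRNA samples (log2 fold change -1.49, SE 0.44, adjusted p = 0.260). *Gbp8* was at 67.2 and 119.3 in the controls and at 45.3 and 54.0 in the shRNA samples (log2 fold change -0.94, SE 0.38, adjusted p = 0.292), and its call was lost with the replicate block and by DESeq2. In these genes, too, control 2 was the highest sample. The exons of *Gbp8* overlap *Gbp4* and *Gbp9*, and the family shares sequence. Control 2 was above control 1 in all 12, and with the 5 genes of the set in 17 of 17, where the median log2 fold change of the 17 was -0.57.

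**Figure D5:**
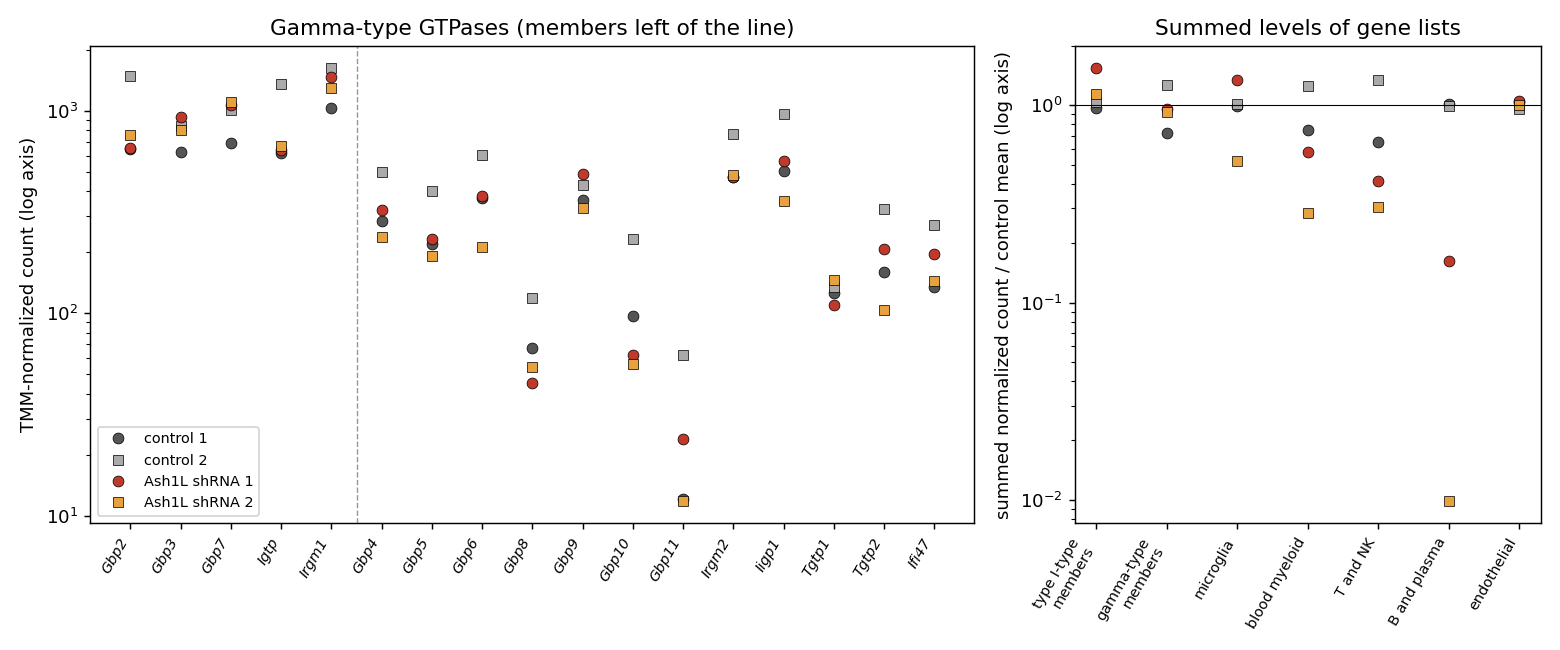
Left, TMM-normalized counts (log axis) of the 5 gamma-type genes of the set and of 12 other gamma-type GTPases in each sample. Right, summed normalized counts of the type I-type genes, the gamma-type genes and of markers of 5 cell types, each divided by the mean of the controls (log axis). Control 2 (grey squares) is above control 1 in 17 of 17 GTPases. The B and plasma cell sum, most of which is *Jchain* in the controls, falls to 622.7 and 37.56 in the shRNA samples.

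Levels of different genes can be compared per length. Per kilobase of exon, the highest mean normalized counts in the controls were those of *Ifitm3* at 935, *Ifi27* at 609.7, *Ifit3* at 511 and *Igtp* at 486.9, and the lowest were those of *Oas2* at 13.4, *Oasl1* at 19.4 and *Ifi44* at 22.5. *Rsad2*, with the largest fold change, ranked 30 of 38 by this control level, at 46.9. *Ifih1* and *Ddx58* ranked 26 and 28, at 61.6 and 58.4. These 3 genes were therefore among the lower levels of the set in control PFC, and *Ifitm3* was UP from the highest level.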

How the data were processed

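Total RNA of PFC punches was sequenced from stranded, ribosomal RNA-depleted libraries (2 control, 2 *Ash1L* shRNA samples, labelled as biological duplicates). The authors aligned reads to mm10 with STAR and deposited raw counts per gene symbol from featureCounts, whereas the extraction text in the labels names Cutadapt and TopHat2. The strand and multiple-mapping settings of the counting were not given in the sources used here. Control samples differed by a chi-square per degree of freedom of 15.4 and shRNA samples by 44.6, so the replicates are not repeats of 1 library.

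Counts were filtered with filterByExpr, normalized with TMM and tested with edgeR 4.0.16 (R 4.3.3; robust quasi-likelihood test, no block), with Benjamini-Hochberg adjustment over 16232 genes. UP and DOWN use the limits of the study, an unadjusted p under 0.05 and at least 1.2-fold, which the study applied to DESeq2. Every p in the text without another name is from this test. Log2 differences by sample used a pseudocount of 1. The script was tested on simulated counts with known changes. The genes, the lists and the tests were chosen with earlier results of these data known. Counts per sample are given for genes called UP or DOWN, for genes whose groups did not overlap and for the 2 most abundant of each role group, and of the further pathway genes those called and the receptors are named. Not every gene that the rule names is reported here. *Ifi27* is listed in the tables as *Ifi27l1*, its RefSeq synonym. *Ifi27l2a*, which carries the same synonym, had a log2 fold change of 0.35 (adjusted p = 0.749). Coordinates are from GENCODE vM21 and promoters from RefSeq (GRCm38.p6, which is mm10). *Trac*, *Trbc2*, *Ighm* and *Igkc* were not analysed here.

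Alternatives were each sample left out, the replicate block, scaling by library size, upper quartile or RLE, a filter of 1 count in any sample or 10 counts in all, pseudocounts of 0.5 and 5, a 1.5-fold limit, DESeq2 1.42.0 and the likelihood ratio test of edgeR. No source states that same-numbered samples share mice or processing, and their deviations from the group means correlated at -0.15 across genes, so the numbers were not taken to pair the samples.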

Additional observations from a re-analysis of the deposited data

How the results depend on the processing

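With all samples in the fit, the count of UP genes in the set stayed between 9 and 13 over 9 alternatives, and over the genes and alternatives 330 results kept direction and side of the limit, 11 crossed into UP and 1, *Mx2* with the replicate block, crossed out. With the replicate block 9 genes of the set were UP (6.48% of all genes), 4 further pathway genes were UP and 1 DOWN, and apart from *Mx2* the block ended no UP call in the set. The crossed block, chosen after seeing the data because same-numbered samples deviated in opposite directions, gave 13 UP in the set, 5 UP and 7 DOWN among the further pathway genes. The count of all genes UP rose with it too, to 1541 from 1397 in the main fit. The further pathway genes had 3 UP (6.16% of all genes) and 4 DOWN by DESeq2 and 1 DOWN each with upper-quartile and library-size scaling. Leaving out 1 sample at a time moved far more. The set had 3 UP without control 1 and 25 without *Ash1L* shRNA 2 as lowest and highest, 7 in each other case, and 0 to 3 DOWN (3 without control 1). The further pathway genes had 2 to 9 UP and 0 to 10 DOWN, and all genes 423 to 2368 UP and 306 to 2718 DOWN. The median log2 fold change of the type I-type genes ran from 0.13 (without *Ash1L* shRNA 1) to 0.69 (0.685, without *Ash1L* shRNA 2), and that of the gamma-type genes from -0.23 to 0.41, or -0.57 when joined by the other GTPases, a joining chosen after seeing the data. *Ash1l* ran from -0.97 to -0.31 and was past the limit only without *Ash1L* shRNA 1. Signs turned in 14 cases, all on leaving out a sample. Without *Ash1L* shRNA 1 as lowest and without *Ash1L* shRNA 2 as highest, the log2 fold change ran from -0.048 to 0.56 (0.555) for *Ifit2*, -0.047 to 0.51 for *Oasl2*, -0.10 to 0.80 for *Ifit3*, -0.081 to 0.94 (0.945) for *Oas1a*, -0.19 to 0.71 for *Trim30a*, -0.13 to 0.32 for *Ifi27* and -0.40 to 0.86 for *Lgals3bp*. Without control 1 as lowest and without control 2 as highest, it ran from -0.34 to 1.39 for *Zbp1*, -0.07 to 0.54 for *Slfn2* (-0.01 without *Ash1L* shRNA 1), -0.23 to 0.41 for *Irgm1* (-0.07 without *Ash1L* shRNA 1), -1.07 to 0.12 for *Gbp2* and -1.03 to 0.079 for *Igtp*. The cause was not tested. Another scaling moved the median of all genes by at most 0.04. Depth was lowest in control 1.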
